A study of Mus musculus with 20 samples.

Results

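Fkbp5 and 9 further genes of glucocorticoid response, metabolism and local synthesis were followed in the ileum of mice fed with or without tryptophan (Trp). The 10 genes, Fkbp5, Tsc22d3, Zbtb16, Sgk1, Klf9, Nr3c1, Hsd11b1, Hsd11b2, Cyp11a1 and Cyp11b1, were all found among the 35204 genes of the count table, and 9 of them passed a filter on low counts that left 16306 genes. Fkbp5 was chosen by measured values in these same mice, namely the difference between its diet effect without and with antibiotics, and the other genes were listed by function with earlier results of these data known. Their levels and fold changes are therefore given as a description.

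Terminal ileum RNA came from wild-type female C57Bl6 mice that were 7 weeks old when the diets began, with no transgene or deletion in any group. The 4 groups of 5 mice received a control diet (CD) or a Trp-deficient diet (TDD) for 3 weeks, each either under specific pathogen-free (SPF) conditions without antibiotics or with ampicillin, vancomycin, gentamycin, metronidazole and neomycin (ABX) in sweetened drinking water. The study asked how the loss of dietary Trp alters ileal gene expression with and without an intact microbiota. All 20 libraries were used, with 36676963 to 58662617 estimated counts each.

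The labelled tissue was checked against its markers. The summed level of Slc10a2 and Fabp6, the bile acid carriers that define the terminal ileum, was 1.77 to 11.9 TPM (a level per transcript length) in CD and 2.29 to 16.3 TPM in TDD mice, and 18.5 to 594.0 and 18.3 to 186.6 TPM in the same diets with ABX. In every SPF mouse these markers were thus low for the terminal ileum, beside 12315 to 31546 TPM for 6 general enterocyte markers over all mice, and they were higher in every ABX-treated mouse. Whether the pieces of SPF and ABX-treated mice came from the same position along the gut was not tested, which bears on each comparison of ABX-treated with SPF mice and on the difference between the diet effects.

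Glucocorticoids are steroid hormones, made mainly in the adrenal cortex and in smaller amounts in the gut epithelium. They bind the glucocorticoid receptor, encoded by Nr3c1, which then moves to the nucleus and switches on genes such as Fkbp5, Tsc22d3, Zbtb16, Sgk1 and Klf9. FKBP5 is a co-chaperone that lowers the hormone affinity of the receptor, so that its induction forms a negative feedback loop.

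The receptor can bind a pair of inverted half-sites, AGAACA and TGTTCT, separated by 3 bases. The 250 bases before a start site are shown for Fkbp5, the gene with the largest number of counts among those that were called, and for 3 starts of Sgk1, whose transcripts are compared further on. Sequences are from RefSeq on GRCm38 and run 5′ to 3′ on the strand of the gene, with half-sites and the E-box CACGTG, the site of circadian clock and related factors, in capitals.

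Fkbp5 start, minus strand, chr17:28486150-28486399: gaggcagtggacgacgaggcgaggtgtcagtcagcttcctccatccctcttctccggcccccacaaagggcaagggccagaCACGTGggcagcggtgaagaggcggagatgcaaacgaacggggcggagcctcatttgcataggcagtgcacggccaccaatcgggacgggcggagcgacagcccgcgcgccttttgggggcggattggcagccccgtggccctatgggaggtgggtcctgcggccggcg
Start of Sgk1-203 and Sgk1-212, plus strand, chr10:21991973-21992222: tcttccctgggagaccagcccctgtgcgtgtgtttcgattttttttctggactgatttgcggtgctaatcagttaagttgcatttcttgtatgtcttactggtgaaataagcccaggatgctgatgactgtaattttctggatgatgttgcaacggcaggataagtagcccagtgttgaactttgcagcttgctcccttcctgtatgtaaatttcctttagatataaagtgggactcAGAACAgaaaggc
Start of Sgk1-202, plus strand, chr10:21993640-21993889: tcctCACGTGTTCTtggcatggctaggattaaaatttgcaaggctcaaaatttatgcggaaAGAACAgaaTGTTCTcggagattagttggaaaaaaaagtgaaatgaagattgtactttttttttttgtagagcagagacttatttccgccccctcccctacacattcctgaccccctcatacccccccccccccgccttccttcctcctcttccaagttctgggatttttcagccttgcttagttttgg
Start of Sgk1-201, plus strand, chr10:21994416-21994665: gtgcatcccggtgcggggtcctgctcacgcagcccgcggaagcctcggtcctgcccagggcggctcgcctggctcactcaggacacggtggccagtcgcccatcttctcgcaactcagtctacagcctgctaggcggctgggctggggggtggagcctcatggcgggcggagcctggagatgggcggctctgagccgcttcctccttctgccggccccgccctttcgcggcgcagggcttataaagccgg

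The window before Sgk1-202 held both half-sites with 3 bases between them, beginning 189 bases before the start, and its E-box overlapped a further TGTTCT half-site. Of all 32851 promoters in the table, searched on both strands over 250 bases before to 50 after the start, 3 (0.00913%) held the paired half-sites, 19% at least 1 half-site and 7.15% the E-box. The Fkbp5 window held 1 E-box, 169 bases before the start, and no half-site. The table held 14 starts of 6 of the 10 genes, and half-sites were also found before the first Sgk1 start and 1 Tsc22d3 start. These matches describe the letters in the windows and do not show where the receptor binds.

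Among the response genes, Fkbp5 and Zbtb16 were higher on TDD in SPF mice, and both were also higher with ABX on CD. With ABX on TDD, Zbtb16 was lower. Klf9 moved less, and Tsc22d3 and Sgk1 were not past the threshold in any comparison.

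Fkbp5 (ENSMUSG00000024222.17, chromosome 17 of GRCm38, 28399094 to 28517527, minus strand) was at 21.9, 29.8, 17.9, 46.6 and 36.0 CPM (counts scaled to library size by the trimmed mean of M values, TMM) in the 5 CD mice and at 193.6, 187.1, 190.3, 196.7 and 201.3 CPM in the 5 TDD mice. With ABX, it was at 71.4, 144.0, 81.6, 73.6 and 74.6 CPM on CD and at 157.0, 183.9, 178.3, 132.8 and 98.2 CPM on TDD. The SPF groups did not overlap, whereas CD+ABX mouse 2 lay above 2 of the 5 TDD+ABX mice. The TDD mice also lay above every TDD+ABX mouse.

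The log2 fold change of Fkbp5 on TDD was 2.67 (standard error 0.25) without antibiotics and 0.75 (standard error 0.24) with them, and the effect with ABX minus that without was -1.92 (standard error 0.34). ABX raised it by 1.55 (standard error 0.24) on CD, and the change on TDD was -0.37 (standard error 0.23). Each diet comparison shares a group of mice with each ABX comparison, so that these values are not all independent of each other. The diet comparisons share no mice with one another, and neither do the ABX comparisons. The spread within groups also differed, with an SD of 5.51 CPM in TDD mice and of 30.9 and 35.3 CPM in CD+ABX and TDD+ABX mice (n = 5 each).

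Zbtb16 (ENSMUSG00000066687.5, chromosome 9, 48654297 to 48836222, minus strand), a zinc-finger transcription factor also needed by innate-like lymphocytes, was at 2.76, 1.93, 1.44, 2.64 and 0.78 CPM in CD mice and at 7.002, 23.7, 20.6, 34.6 and 20.7 CPM in TDD mice. With ABX, the CD mice had 8.40, 16.1, 9.58, 4.77 and 2.11 CPM and the TDD mice 3.31, 4.40, 11.1, 3.54 and 1.46 CPM. The SPF groups did not overlap, and TDD mouse 1 was the lowest of its group. With ABX, the diets overlapped.

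Zbtb16 was 3.49 higher on TDD in SPF mice on the log2 scale (standard error 0.59; the quasi-likelihood test of edgeR, adjusted over all genes tested, gave q = 0.000843). In ABX-treated mice the diet effect was -0.78 (standard error 0.54, q = 0.539, edgeR). ABX raised Zbtb16 on CD by 2.11 (standard error 0.57, q = 0.0217, edgeR), a call that was lost without CD mouse 3 (q = 0.0548), CD mouse 5 (q = 0.0548) or CD+ABX mouse 2 (q = 0.0610). On TDD it fell by 2.16 (standard error 0.55, q = 0.0150, edgeR). The difference of -4.27 between the diet effects (standard error 0.79, q = 0.0587, edgeR) missed the threshold.

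A list of 5 T cell markers had a summed level of 26.6 to 71.2 TPM in CD mice and of 14.9 to 33.6 TPM in TDD mice, and of 12.0 to 14.6 and 10.3 to 24.1 TPM in the same diets with ABX. All 5 markers were detected in every mouse. These markers do not single out innate-like lymphocytes, some of which are themselves T cells. Whether T cells or innate-like lymphocytes had a part in the values of Zbtb16 was not tested. In bulk tissue, fewer cells of a type and less RNA per cell cannot be told apart.

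**Figure D1:**
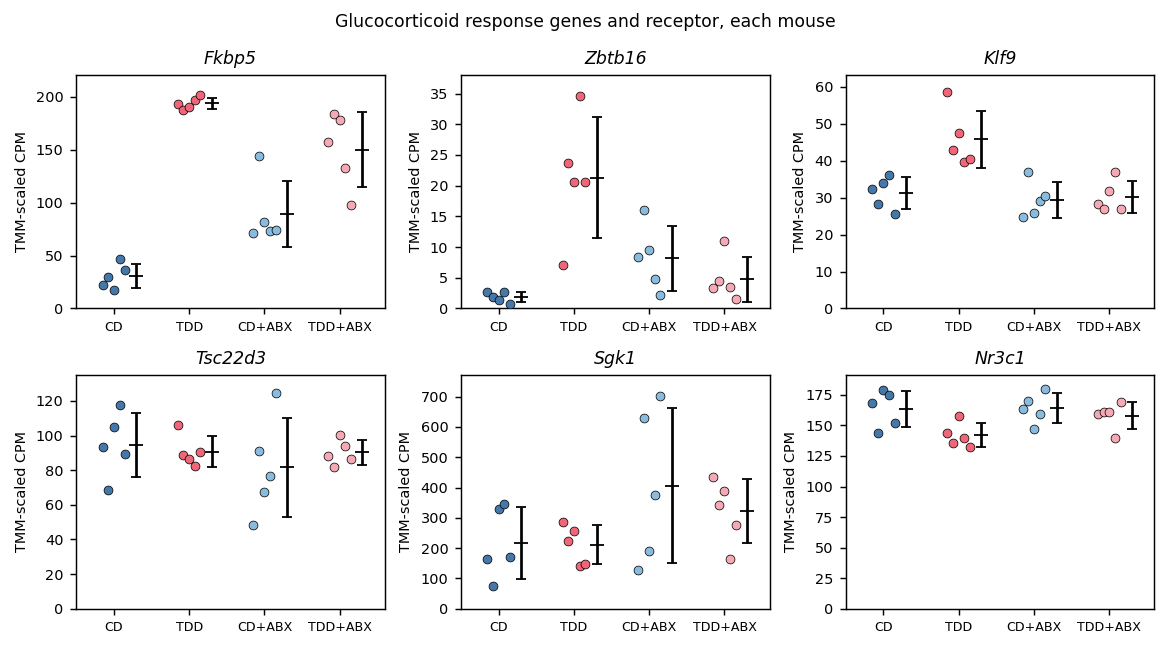
Levels of 5 glucocorticoid response genes and of the receptor gene Nr3c1 in TMM-scaled CPM (linear axes from 0) in each mouse of the 4 groups, with the mean and SD beside the points (n = 5). The 5 TDD mice lie between 187.1 and 201.3 CPM for Fkbp5, above all other mice, and the groups of Tsc22d3 and Sgk1 overlap.

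Klf9 (chromosome 19, 23141226 to 23168134, plus strand), a Krüppel-like transcription factor, was at 32.4, 28.3, 33.9, 36.2 and 25.7 CPM in CD mice and at 58.6, 42.8, 47.5, 39.7 and 40.6 CPM in TDD mice, so that these groups did not overlap. With ABX, CD mice ranged from 24.7 to 36.9 CPM (median 29.0) and TDD mice from 26.8 to 36.9 CPM (median 28.3). The SPF mice on TDD thus stood above the other 3 groups. The log2 fold change on TDD in SPF mice was 0.55 (standard error 0.13, q = 0.00745, edgeR), and with ABX on TDD it was -0.61 (standard error 0.13, q = 0.00535, edgeR). Neither reached a 2-fold change.

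Tsc22d3 (chromosome X, 140539528 to 140600659, minus strand), which encodes the anti-inflammatory protein GILZ, had group medians of 93.5 CPM in CD, 88.5 CPM in TDD, 76.5 CPM in CD+ABX and 88.3 CPM in TDD+ABX mice, with overlap in every comparison. Its log2 fold change on TDD in SPF mice was -0.06 (standard error 0.18, q = 0.861, edgeR). Sgk1 (chromosome 10, 21882184 to 21999903, plus strand), a kinase that promotes sodium uptake, spread widely within groups. It was at 73.6 to 347.3 CPM in CD mice, 140.9 to 285.5 CPM in TDD mice, 129.3 to 703.8 CPM in CD+ABX mice and 162.9 to 436.2 CPM in TDD+ABX mice. Its change with ABX on CD was 0.90 (standard error 0.45, q = 0.213, edgeR).

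The receptor gene Nr3c1 (chromosome 18, 39410545 to 39519421, minus strand) had medians of 168.1 CPM in CD, 139.96 CPM in TDD, 163.4 CPM in CD+ABX and 160.7 CPM in TDD+ABX mice. The change on TDD in SPF mice was -0.20 (standard error 0.07, q = 0.0634, edgeR), and the groups overlapped. In the other pairwise comparisons the log2 fold change of Nr3c1 lay between -0.05 and 0.15.

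Of the enzymes, Hsd11b1 (chromosome 1, 193221634 to 193264075, minus strand) reactivates inert 11-keto steroids and Hsd11b2 (chromosome 8, 105518755 to 105523988, plus strand) inactivates the hormone. Hsd11b2 was at 5.67, 4.88, 5.49, 6.11 and 5.83 CPM in TDD mice and at 8.72, 8.35, 8.52, 8.74 and 5.84 CPM in TDD+ABX mice. All but mouse 5 of the TDD+ABX group lay above every TDD mouse, and the log2 fold change was 0.52 (standard error 0.16, q = 0.0323, edgeR), under 2-fold. In CD and CD+ABX mice Hsd11b2 ranged from 3.66 to 7.01 CPM and from 5.17 to 6.87 CPM.

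Hsd11b1 ranged from 1.996 to 3.86 CPM in CD, 2.84 to 5.05 CPM in TDD, 1.26 to 2.54 CPM in CD+ABX and 2.17 to 3.33 CPM in TDD+ABX mice. It did not pass in any comparison, and the nearest was the change of -0.62 with ABX on CD (standard error 0.21, q = 0.0583, edgeR). The ratio of Hsd11b1 to Hsd11b2, both in TPM, had a median of 0.910 in CD and 0.818 in TDD mice, and of 0.391 and 0.471 in the same diets with ABX. It ranged from 0.587 to 0.914 in CD and from 0.344 to 0.645 in CD+ABX mice. On TDD it ranged from 0.679 to 1.15 without and from 0.352 to 0.827 with ABX. The ranges thus overlapped on both diets, and the ratio was not tested. Hsd11b1 lies within the span of Lamb3 on the other strand, but they share no exon bases.

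Cyp11a1 (chromosome 9, 58006411 to 58027023, plus strand) makes the first step of steroid synthesis and Cyp11b1 (chromosome 15, 74834125 to 74841643, minus strand) the last step to corticosterone. Cyp11a1 had 8 to 23 counts in TDD mice, 9 to 27 in CD mice, 11 to 37 in CD+ABX mice and 10 to 36 in TDD+ABX mice. It reached the filter in 1 CD mouse, no TDD mouse, 3 CD+ABX mice and 2 TDD+ABX mice, and its changes did not pass (log2 fold change 0.68, standard error 0.33, q = 0.174 with ABX on TDD, edgeR). The short transcript Cyp11a1-202, of 539 bases, took 80.7% of its TPM, from 8.01 estimated counts per mouse on average. The 3439-base Cyp11a1-204, which retains an intron, had 7.89 such counts and took 9.21%. The 2120-base Cyp11a1-201 had 3.93 and took 7.66%. Cyp11a1 shares 145 exon bases with the non-coding Gm17322.

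Cyp11b1 had between 0 and 5 counts in every mouse and was not tested, and it shares 285 exon bases with Gml2. Of 4 adrenal cortex markers, Cyp11b2 had no count, Nr5a1 had 42 counts and Mc2r 15 counts over all 20 mice. The fourth, Star, which carries cholesterol into mitochondria, had 1871 counts and was detected in all 20 mice, at 1.28 TPM on average. The 4 summed to 0.881 to 2.04 TPM. At this depth, differences in Cyp11b1 between the groups were not detectable.

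**Figure D2:**
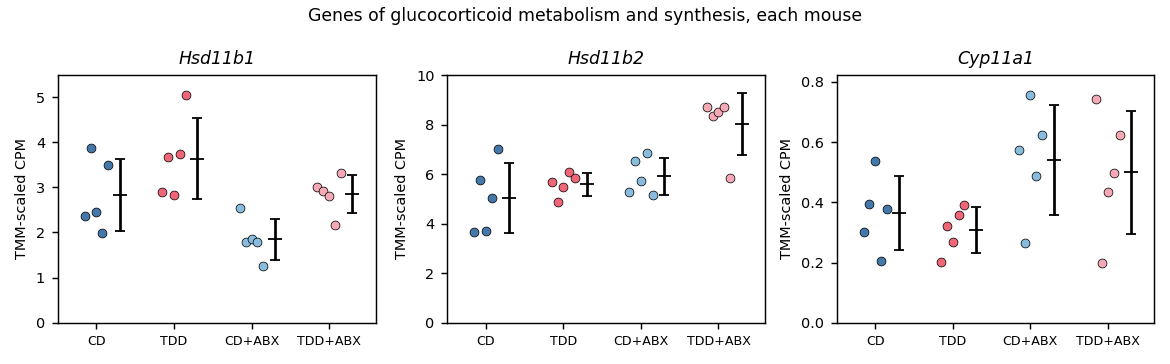
Levels of Hsd11b1, Hsd11b2 and Cyp11a1 in TMM-scaled CPM (linear axes from 0) in each mouse, with the mean and SD beside the points (n = 5). TDD+ABX mice reach 8.74 CPM of Hsd11b2, and no group exceeds 0.758 CPM of Cyp11a1.

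Per length, the mean level over the 20 mice fell in the order Sgk1 (241.1 TPM), Tsc22d3 (62.8 TPM), Fkbp5 (47.4 TPM), Nr3c1 (34.7 TPM), Klf9 (13.8 TPM), Hsd11b2 (4.63 TPM), Hsd11b1 (2.91 TPM), Zbtb16 (2.61 TPM), Cyp11a1 (0.707 TPM) and Cyp11b1 (0.0137 TPM). The order changed with the group. Fkbp5 averaged 12.2 ± 3.92 TPM in CD mice, near Klf9 at 12.8 ± 1.67 TPM, but 76.8 ± 6.96 TPM in TDD mice, above Tsc22d3 at 61.4 ± 5.23 TPM (SD, n = 5 each).

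Counted at q under 0.05 and at least a 2-fold change, 2 of the 9 tested genes, Fkbp5 and Zbtb16, were called as higher on TDD in SPF mice, where 0.834% of all genes tested were. In ABX-treated mice none of the 9 was called, where 0.307% of all genes were in either direction. DESeq2 and limma-voom called none there either. With edgeR, 3 of the 9 had an unadjusted p under 0.05, namely Fkbp5, Hsd11b1 and Hsd11b2, each higher on TDD. With ABX on CD, Fkbp5 and Zbtb16 were called as higher (0.576% of all genes), and with ABX on TDD, Zbtb16 was called as lower (1.26%). The difference between the diet effects, by which Fkbp5 was chosen, was past the threshold for it, as lower with ABX, and for 0.0123% of all genes. It was past the threshold in 9 of 30 alternatives and lost in 21, so that it is given as a description and not as a test.

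Since the genes were listed with these comparisons known, nothing is read from their share. Without the limit on the fold change, Klf9 joined the higher genes on TDD in SPF mice (6.65% of all genes higher, 7.71% lower). With ABX on TDD, Hsd11b2 joined as higher and Klf9 as lower (7.14% higher, 8.22% lower). No gene was added with ABX on CD (5.26% higher, 7.37% lower), on TDD in ABX-treated mice (0.626% higher, 1.02% lower) or in the difference between the diet effects (0.0368%). The median log2 fold change of the 9 genes on TDD was 0.15 without antibiotics and 0.04 with them, against 0.01 and 0.00 over all genes tested.

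**Figure D3:**
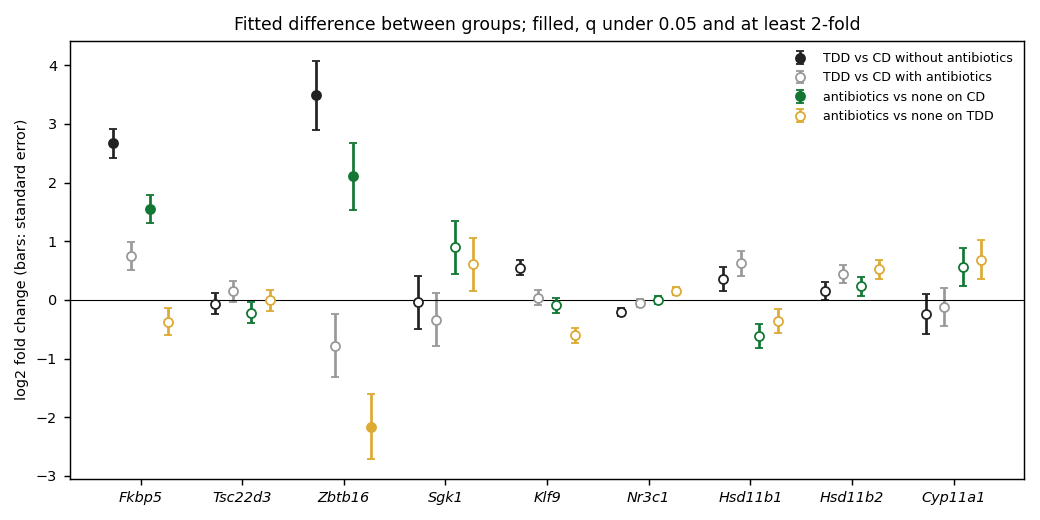
Fitted log2 fold changes of the 9 tested genes in the 4 pairwise comparisons, with standard errors as bars and filled points for genes called at q under 0.05 and at least 2-fold (edgeR). Fkbp5 and Zbtb16 stand at 2.67 and 3.49 on TDD in SPF mice, and Zbtb16 at -2.16 with ABX on TDD.

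The share of each transcript in the TPM of its gene was not used to choose the genes, and it was compared for 16 transcripts of 6 genes over 4 pairwise comparisons (64 exact permutation tests). None passed after Benjamini-Hochberg adjustment, and 9 had an unadjusted exact permutation p under 0.05. The smallest p that 5 mice against 5 allow is 0.00794, and 11 tests at that value would have been needed for any to pass.

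The Sgk1-201 transcript held 56.9, 64.6, 58.0, 55.4 and 71.2% of Sgk1 TPM in CD mice and 52.5, 45.8, 48.6, 40.6 and 41.1% in TDD mice. With ABX on CD it held 50.02, 43.3, 49.6, 42.5 and 50.7%. The CD mice lay above both other groups, by 15.5 points on average over TDD mice and 14.0 points over CD+ABX mice (two-sided exact permutation test, p = 0.00794 and q = 0.169 in both). Sgk1-203, which starts further upstream, held 0.0108 to 4.90% in CD mice and 4.21 to 13.9% in TDD mice (p = 0.0159, q = 0.203, exact permutation test). Sgk1-202, whose window held the paired half-sites, took 1.97% of mean Sgk1 TPM and was not tested.

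Tsc22d3-201 held 85.5 to 88.2% of Tsc22d3 TPM in CD mice and 79.5 to 84.1% in TDD mice (p = 0.00794, q = 0.169, exact permutation test). Fkbp5-201 held 88.6% of Fkbp5 TPM in CD and 87.4% in TDD mice on average (p = 0.841, q = 1, exact permutation test), a difference of 1.21 points against one of 2.67 on the log2 scale in the level of the gene.

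**Figure D4:**
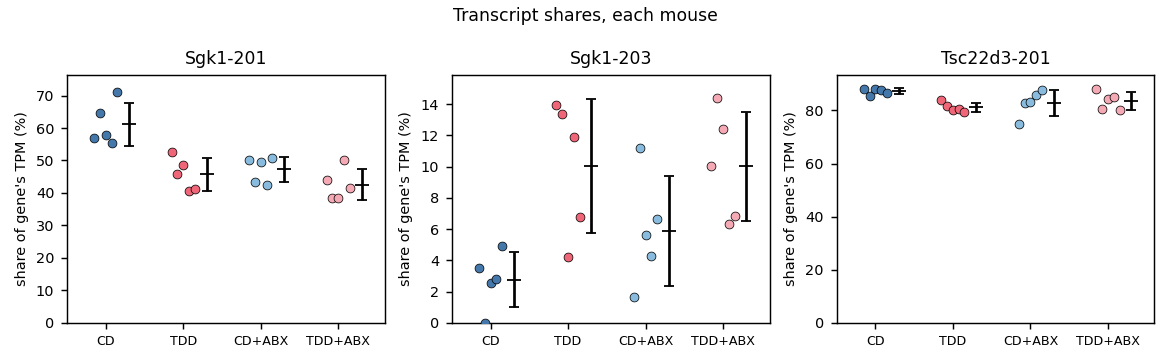
Share of the gene's TPM, in percent, held by Sgk1-201, Sgk1-203 and Tsc22d3-201 in each mouse, with the mean and SD beside the points (n = 5, axes from 0). The 5 CD mice lie at 55.4% or above for Sgk1-201, above every TDD and CD+ABX mouse.

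The other genes of the pathway were counted over fixed lists at q under 0.05 without a fold limit. Of 25 further response genes, 4 were higher and 1 lower on TDD in SPF mice, and none passed in ABX-treated mice, where 5 had an unadjusted p under 0.05 (edgeR). With ABX, 5 were higher and 3 lower on CD, and 2 were higher and 3 lower on TDD. Over all genes tested, 6.65% were higher and 7.71% lower on TDD in SPF mice, and 0.626% and 1.02% on TDD in ABX-treated mice. The shares with ABX were 5.26% and 7.37% on CD, and 7.14% and 8.22% on TDD. The metallothioneins Mt1 and Mt2, which bind zinc and copper, rose on TDD in SPF mice by 1.36 and 2.34 on the log2 scale (standard errors 0.26 and 0.44), and also with ABX on CD, by 0.91 and 1.58 (0.26 and 0.43). Mt2 was at 4.13 to 26.4 CPM in CD mice and 28.1 to 97.2 CPM in TDD mice.

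G6pc, the last enzyme of glucose release, fell by 1.68 on TDD in SPF mice (standard error 0.37) and by 2.46 with ABX on CD and 1.59 with ABX on TDD (standard errors 0.38 each). Pdk4, which restrains glucose oxidation, fell by 1.35 and 1.71 with ABX on CD and TDD (standard errors 0.38 each). Per1, a clock gene that glucocorticoids also induce, rose on TDD in SPF mice by 1.01 (standard error 0.31), named after its value was seen. Over the list, the median change on TDD in SPF mice was 0.13, against 0.01 over all genes.

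Of 16 partners of the receptor, none passed on either diet comparison (4 and 2 had an unadjusted p under 0.05, edgeR). Over all genes, 6.65% were higher and 7.71% lower on TDD in SPF mice, and 0.626% and 1.02% in ABX-treated mice. With ABX, 6 partners were higher and 1 lower on CD (5.26% and 7.37% of all genes). On TDD, 7 partners were higher with ABX and none lower (7.14% and 8.22%). The chaperones that hold the receptor in its hormone-binding state were among them, with changes on TDD of 0.84 for Hsp90aa1, 0.71 for Stip1, 0.67 for Hspa8 and 0.58 for Fkbp4, the co-chaperone that competes with FKBP5 (standard errors 0.17, 0.12, 0.13 and 0.10). The median over the list with ABX was 0.20 on CD and 0.09 on TDD, against 0.00 and -0.03 over all genes.

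Of 17 genes of steroid synthesis, 11 could be tested. On TDD, 1 was higher and 3 lower in SPF mice (6.65% and 7.71% of all genes), and 1 higher and 1 lower in ABX-treated mice (0.626% and 1.02%). Nr0b2, which encodes the repressor SHP, fell by 2.85 on TDD in SPF mice (standard error 0.51), from 3.12 to 6.77 CPM in CD mice to 0.226 to 1.44 CPM. Por, the electron donor of microsomal P450 enzymes and the most abundant of the list at 76.3 TPM, rose by 0.46 and 0.62 in the 2 diet comparisons (standard errors 0.14 each). With ABX, Cyp17a1 rose by 0.95 on both diets and Hsd3b3 by 0.74 and 0.90, and Hsd3b3 has close paralogs among which reads could be split. Cyp17a1 was low, at 0.854 to 1.63 CPM in CD and 0.714 to 0.940 CPM in TDD mice. In ABX-treated mice it was at 1.62 to 2.89 CPM on CD and 1.29 to 1.90 CPM on TDD.

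Of 11 genes of steroid breakdown and transport, 9 were tested, with 3 higher on TDD without antibiotics (6.65% of all genes) and 1 with them (0.626%). The gene higher with them was Abcb1a, a drug and steroid exporter, which was at 108.4 to 153.1 CPM in CD and 282.6 to 430.1 CPM in TDD mice, and at 167.0 to 489.6 and 491.0 to 748.3 CPM in the same diets with ABX. The diets did not overlap in either setting, and the log2 fold changes were 1.52 and 1.15 (standard errors 0.21 each). ABX also raised it, by 1.22 on CD and 0.85 on TDD. H6pd, which supplies the cofactor of the HSD11B1 enzyme, fell by 0.37 and 0.45 with ABX on CD and TDD (standard errors 0.06 each). Cyp3a11, of a family with close paralogs, fell by 1.41 with ABX on CD, Srd5a1 rose by 0.37 and 0.59, and Cyp3a13 was the most abundant of the list at 354.5 TPM.

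Of 9 sodium transport targets, 7 were tested, and 3 were higher on TDD in SPF mice (6.65% of all genes). Among them were Atp1b1, the beta subunit of the sodium pump (0.59, standard error 0.13), and Sgk3, a kinase related to Sgk1 (0.43, standard error 0.12). Sgk2 rose by 1.30 with ABX on CD (standard error 0.33). None of the 6 genes of the hypothalamus, pituitary and adrenal axis passed the filter, the highest being Pomc at 0.428 TPM.

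The genes most like Fkbp5 in log2(CPM + 1) over the 20 mice, among 14040 genes with a mean of at least 1 CPM, were Fam133b, Ankrd12, Klf15, Selenos and Vsig10l, with Pearson r of 0.92, 0.90, 0.89, 0.89 and 0.87 and Spearman rho of 0.95, 0.94, 0.94, 0.78 and 0.86. After each group was centred on its mean, r was 0.63, 0.19, 0.24, 0.55 and 0.00, so that for Ankrd12, Klf15 and Vsig10l the likeness lay mainly between the groups. Klf15, a Krüppel-like transcription factor, was at 2.55 to 6.65 CPM in CD, 12.7 to 18.7 CPM in TDD, 6.37 to 11.2 CPM in CD+ABX and 10.7 to 11.6 CPM in TDD+ABX mice. Among the listed genes, r with Fkbp5 was 0.71 for Zbtb16, 0.56 for Hsd11b2, 0.43 for Klf9, 0.24 for Hsd11b1, 0.21 for Sgk1, 0.01 for Tsc22d3 and -0.46 for Nr3c1. With groups centred, it was 0.66 for Hsd11b2, 0.44 for Zbtb16 and between -0.09 and 0.25 for the others. The mice of a group share diet and treatment, and the values are a description.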

How the data were processed

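Poly-A RNA from 20 ilea was sequenced, and the authors quantified transcripts of GRCm38 with kallisto 0.44.0, which splits a read among the transcripts it matches. The deposited values are unnormalized estimated counts for genes, and both estimated counts and TPM for transcripts. The use of strand is not given in the sources used here, so that genes overlapping on the other strand could share reads.

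Here, counts were rounded and TMM-scaled, genes reaching 0.5 CPM in 1 mouse or more were kept, and all 4 groups were fitted together with edgeR 4.0.16 (robust quasi-likelihood test). Calls needed a Benjamini-Hochberg q under 0.05 and a 2-fold or larger change, over all genes tested. The standard errors given with edgeR fold changes were derived from the test. Each is the absolute log2 fold change divided by the square root of the F statistic. Transcripts with at least 5% of the gene's mean TPM and 10 estimated counts on average were compared by two-sided exact permutation tests. Loci are from GENCODE M21. The main edgeR fit was tested on simulated counts with changes in the TDD group alone. The permutation test was checked against another implementation on random values. The other steps were not tested on simulated data. The 10 genes and all lists were chosen with earlier results of these data known. Beyond the 10 genes, the text names up to 4 genes per list with the largest change at q under 0.05, the most abundant gene of each list and the 5 genes most like Fkbp5. Some items that this rule or the marker lists would name are not reported here. Alternatives were RLE and upper-quartile scaling, DESeq2 1.42.0, limma-voom (limma 3.58.1), limma on log2(TPM + 1) and log2(TPM + 0.1), other filters, a replicate block, 2 groups fitted alone and leaving out each mouse. Nothing says that mice of a group were housed apart, so that p-values measure the spread between these mice.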

Additional observations from a re-analysis of the deposited data

Results flagged for a closer look

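The diet effect of Fkbp5 differed between ABX-treated and SPF mice by -1.92 on the log2 scale in the interaction test, the value on which the gene was chosen. Among 100 groups of 5 mice searched over levels and transcript shares, 5 held a mouse far from the others by Dixon's ratio, as many as the 1 in 20 that chance gives. They were CD+ABX mouse 2 for Fkbp5 (144.0 CPM, the highest of its group), TDD+ABX mouse 5 for Hsd11b2 (5.84 CPM, the lowest), TDD+ABX mouse 4 for the share of Sgk1-212 (9.44%, the lowest), and TDD mouse 1 for the shares of Nr3c1-204 (90.1%, the highest) and Hsd11b1-205 (29.6%, the lowest).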

How the results depend on the processing

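The 2 genes called on TDD in SPF mice and the count of 0 in ABX-treated mice were the same in number under every alternative apart from the removal of the fold limit, which gave 3 in SPF mice. The count of 0 does not mean that Fkbp5 was unchanged. Its log2 fold change on TDD in ABX-treated mice lay between 0.67 and 0.99 over the alternatives, higher in each but under the 2-fold limit. With ABX on CD, the count was 1 with limma-voom and with log2(TPM + 1), since Zbtb16 was lost, and 1 to 2 when single mice were left out. With ABX on TDD it was 3 without the fold limit and 1 in every fit that left out a mouse. In the interaction, the count was 0 with RLE scaling, limma-voom, no filter and the filter of at least 5 mice, 2 with DESeq2, which added Zbtb16, and 0 to 2 when single mice were left out. Fkbp5 was called there in 9 of 30 alternatives, and in 4 of the 20 that left out a mouse (without CD mouse 2 or 4, CD+ABX mouse 4 or TDD+ABX mouse 2), while its log2 difference stayed between -2.12 and -1.67. The cause was not tested. With the replicate block the interaction count was 0. The replicate numbers do not pair the mice: 30 same-numbered pairs correlated with a median r of -0.02 (lowest -0.38, highest 0.26), and 1 of the 20 mice correlated best with its own number. The count of transcript shares was 0 under each alternative, which says nothing about stability: with the replicate block, 5 pairs cannot give a p under 0.0625, and otherwise 11 of the 64 tests would have had to reach the smallest p. Depth limits Cyp11a1 and Cyp11b1, which had at most 37 and 5 counts per mouse.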
